A study of Mus musculus with 8 samples.

Results

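Glucose uptake and glycolysis were followed through 10 genes in CD4 T cells from mouse spleen: Slc2a1, Hk1, Hk2, Pfkl, Aldoa, Tpi1, Pgk1, Pgam1, Ldha and Pkm. Every probe set whose array annotation gives 1 of these symbols as its sole gene was taken, without regard to its values. This gave 21 of the 22626 probe sets tested and 10 of the 12393 genes that have such a probe set. Each probe set reads 1 stretch of transcript with several short probes, and a gene can have more than 1. A further probe set that lists Hk1 beside other genes was left out.

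The arrays came from 4 groups of female mice aged 8 to 12 weeks. Mice lacking the aryl hydrocarbon receptor gene Ahr (KO), on a background backcrossed to C57BL/6, and C57BL/6 wild type mice (WT) each received TCDD or DMSO, both in corn oil, by intraperitoneal injection. TCDD, a dioxin and the prototypical ligand of the receptor, was given at 10 µg/kg, and spleens were taken after 24 h. Each of the groups KO TCDD, KO DMSO, WT TCDD and WT DMSO had 2 arrays, numbered 1 and 2. Each array carried sorted CD4 cells pooled from 4 animals, so an array value is already an average over mice. The KO was not restricted to T cells by any label.

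Glycolysis turns glucose into pyruvate and, when lactate dehydrogenase takes over, into lactate. Quiescent T cells run it slowly. On activation they bring more glucose transporter to the surface and raise glycolytic enzymes, under control of PI3K, mTOR, Myc and the hypoxia factor HIF-1. The aryl hydrocarbon receptor and HIF-1α are related transcription factors that share the partner protein ARNT.

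The values are log2 expression values made with RMA, in which a step of 1 is a doubling of the signal. Arrays of a group correlated at 0.967 to 0.992, and arrays of different genotype at 0.937 to 0.989. The 2 Ahr probe sets read 6.49 to 7.08 in KO and 6.11 to 6.29 in WT, and 6.35 to 6.86 in KO and 6.31 to 6.64 in WT; no source used here places their probes relative to the deleted part, so they do not check the labels. For WT TCDD 1 the labels conflict: its description speaks of AhR KO mice, whereas title, source and strain give wild type, which was used here. Of the T cell markers, Cd4 was 8.16 ± 0.09 in KO cells against 8.37 ± 0.28 in WT cells and Cd3e was 9.36 ± 0.17 in KO cells against 9.53 ± 0.09 in WT cells (SD over 4 arrays), above the median probe set level of 6.13. The log2 difference between the 3′ and 5′ actin control probe sets, a measure of RNA integrity, was 3.48 to 3.82 in KO and 2.90 to 4.56 in WT, lowest on the WT arrays numbered 2 (3.30 with TCDD, 2.90 with DMSO) and highest on WT TCDD 1. In pooled RNA of many cells, fewer cells of a type and less RNA per cell cannot be told apart.

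The genotype comparison took the 4 KO against the 4 WT arrays, with TCDD and DMSO pooled as in the series' design, and asked what differs. Loss of the receptor cannot be told apart here from other differences between the KO and WT mice or their sorted cells. Tpi1 (triosephosphate isomerase, which interconverts the 3-carbon sugars made by aldolase) and Aldoa (aldolase A, which splits fructose bisphosphate) were higher in KO. In Tpi1 2 of 3 probe sets passed the test, at 2.63-fold and 1.7-fold, and in Aldoa 1 of 4, at 1.35-fold. The remaining 18 probe sets did not pass the test, though those of Tpi1 and Aldoa also had higher means in KO. Among the 18 were all those of the glucose transporter, the hexokinases, phosphofructokinase, phosphoglycerate kinase and mutase, lactate dehydrogenase and pyruvate kinase.

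In all, 3 of 21 probe sets were called (limma, Benjamini-Hochberg (BH) adjusted p under 0.05), all 3 higher in KO. Over all 22626 probe sets 2.79% were called, 1.59% higher and 1.2% lower (360 and 271 probe sets, or 375 and 184 after each array was centred on its median). All 4 KO arrays lay above all 4 WT arrays in 5 of the 21 (5.67% of all probe sets) and below them in 1 (6.67% of all). The KO minus WT difference was positive in 13 and negative in 8, with a median of 0.09 on the log2 scale, beside −0.005 over all probe sets. The 21 differences ran from −0.50 (Pkm) to 1.40 (Tpi1). In a fit of 4 group means, the model used for the TCDD effects, 0 of 21 were called and 161 of all probe sets, with limma's BH adjusted p at 0.0681 and 0.102 for Tpi1 and 0.104 for Aldoa. None of the 3 calls held on every leave-out of 1 array: 0 of 21 probe sets were called without KO TCDD 1, KO TCDD 2, KO DMSO 1, WT TCDD 1, WT TCDD 2 or WT DMSO 2, and 2 without KO DMSO 2 or WT DMSO 1. Without WT TCDD 1, the array whose labels conflict, the 3 differences were 1.38 and 0.68 for Tpi1 and 0.39 for Aldoa (limma, BH adjusted p = 0.0632, 0.0603 and 0.0563). On the same arrays the linear signal summed over myeloid and dendritic cell markers was 5017 to 7257 in KO and 1985 to 2255 in WT. On WT TCDD 1, the array whose labels conflict, this signal was 2094. The part of these markers' cells in the Tpi1 and Aldoa values was not tested. Nothing says that the arrays of a group came from mice handled separately beyond the series' term biological duplicates, so the p-values measure the spread between these arrays.

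**Figure D1:**
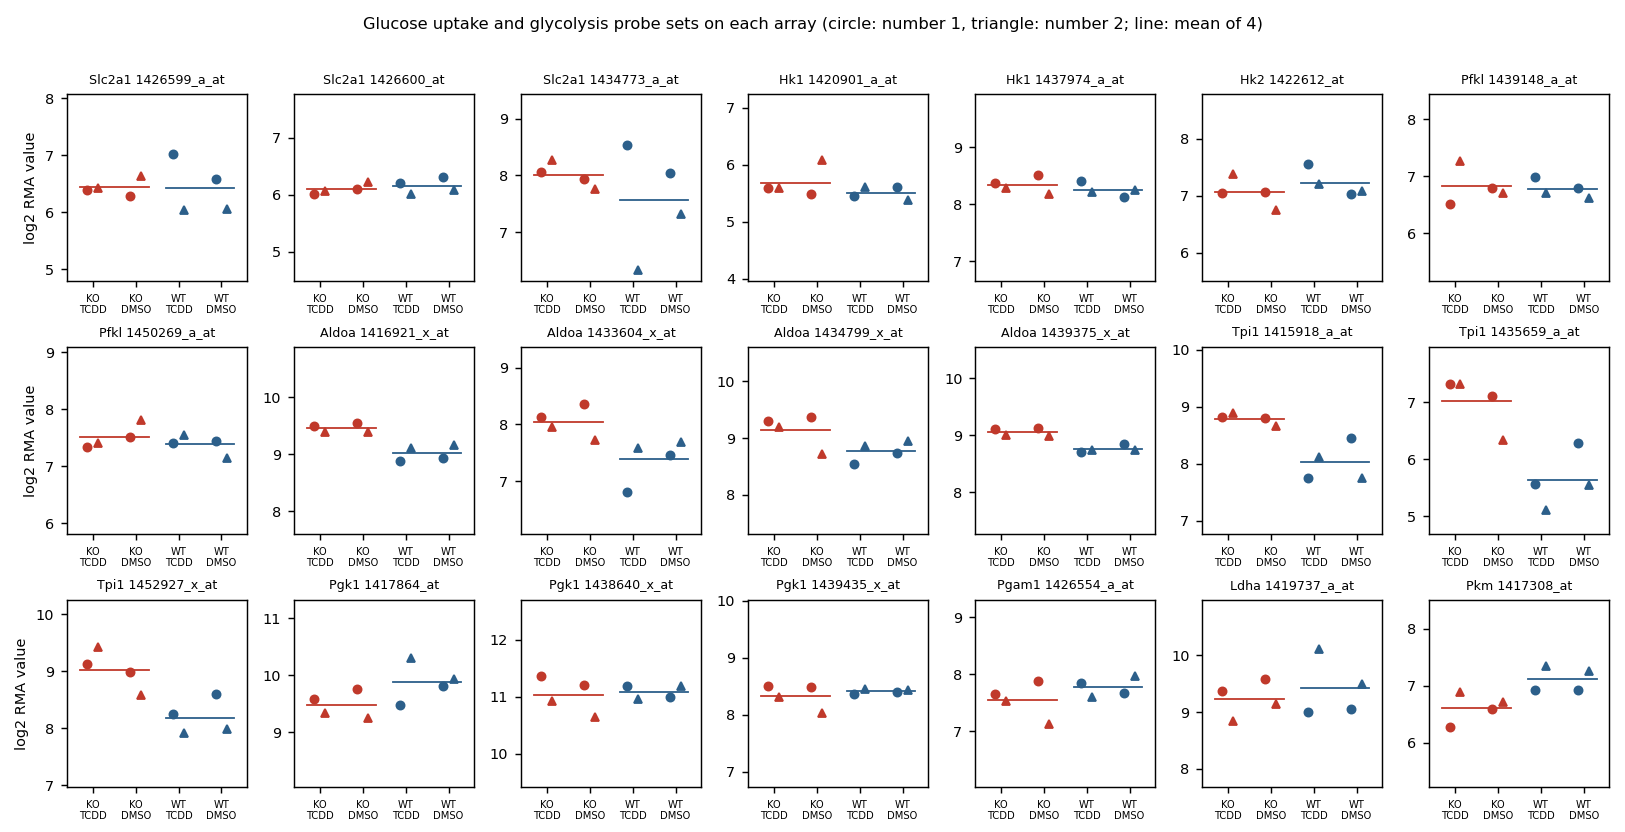
Log2 RMA value (vertical axis, a window of equal height in each panel) of the 21 probe sets on each array, KO in red left of WT in blue, with circles for arrays numbered 1, triangles for arrays numbered 2 and a line at the mean of 4. Tpi1 1435659_a_at shows the widest gap between the means (7.03 in KO, 5.63 in WT), and the WT arrays spread most in Slc2a1 1434773_a_at (6.35 to 8.54).

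**Figure D2:**
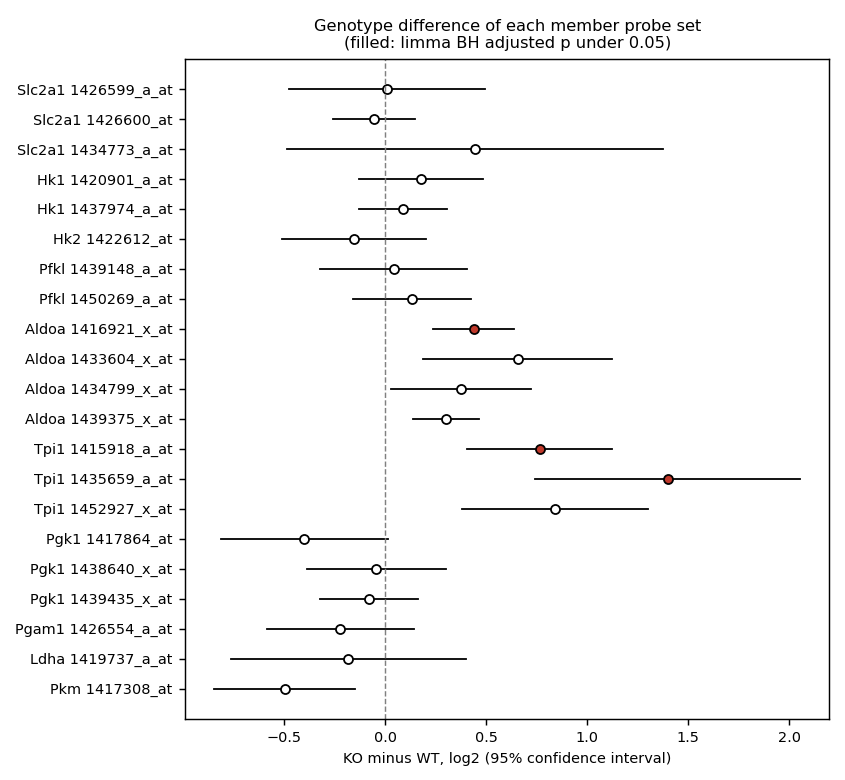
KO minus WT on the log2 scale (horizontal axis) for each of the 21 probe sets, with its unadjusted 95% confidence interval from limma and filled points where the BH adjusted p was under 0.05. The 3 filled points are Tpi1 1435659_a_at (1.40), Tpi1 1415918_a_at (0.77) and Aldoa 1416921_x_at (0.44), and all 7 intervals of Aldoa and Tpi1 lie above 0.

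Glucose enters through Slc2a1 (GLUT1), the transporter that T cells bring to their surface on activation. Its probe set 1434773_a_at read 8.06 and 8.27 in KO TCDD and 7.94 and 7.77 in KO DMSO, against 8.54 and 6.35 in WT TCDD and 8.04 and 7.33 in WT DMSO. The KO arrays lay within 0.50 of each other and inside the WT range, while the WT arrays spanned 2.19, with both arrays numbered 2 lowest. Slc2a1 thus averaged 8.01 ± 0.21 in KO cells and 7.57 ± 0.95 in WT cells (SD over 4 arrays), a difference of 0.45 with a 95% interval from −0.49 to 1.38 (limma, BH adjusted p = 0.603). Without both WT arrays numbered 2 the difference was −0.28, and those arrays also had the lowest actin 3′ to 5′ difference. With that actin difference as a covariate, Slc2a1 1434773_a_at differed by 0.40 (SE 0.29, limma, BH adjusted p = 0.453). The covariate differed by only 0.04 between genotypes, so it could move the Slc2a1 difference only slightly. The part of RNA integrity in it was not tested. The probe set 1426599_a_at read 6.29 to 6.63 in KO and 6.04 to 7.02 in WT, again lowest on the WT arrays numbered 2, with means that differed by 0.01. The third, 1426600_at, read 6.01 to 6.22 in KO and 6.01 to 6.32 in WT.

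Hexokinases trap glucose in the cell by phosphorylating it. Hk1, the widely expressed form, read 8.18 to 8.51 in KO and 8.13 to 8.41 in WT by its probe set 1437974_a_at, a difference of 0.09 with a 95% interval from −0.13 to 0.31. Its other probe set, 1420901_a_at, read 5.48 to 6.08 in KO and 5.38 to 5.61 in WT and had the lowest mean of the 21 and lay under the median probe set level. Hk2, the inducible form that rises in activated T cells, read 7.05 and 7.39 in KO TCDD, 7.07 and 6.76 in KO DMSO, 7.56 and 7.21 in WT TCDD and 7.04 and 7.08 in WT DMSO. The genotypes overlapped, and the difference was −0.16 (95% interval −0.51 to 0.20, limma, BH adjusted p = 0.642).

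Pfkl encodes the liver-type subunit of phosphofructokinase, the committing step of the pathway. Its probe set 1450269_a_at read 7.34 to 7.82 in KO and 7.14 to 7.56 in WT, and 1439148_a_at read 6.52 to 7.27 in KO and 6.62 to 6.99 in WT. The differences were 0.13 (95% interval −0.16 to 0.43) and 0.04 (95% interval −0.32 to 0.41). Changes of more than about 1.34-fold and 1.33-fold upward lie outside these intervals.

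Aldoa had 4 probe sets, each of the kind (ending in x_at) in which some probes also match other transcripts. The probe set 1416921_x_at read 9.49 and 9.40 in KO TCDD and 9.55 and 9.40 in KO DMSO, against 8.88 and 9.11 in WT TCDD and 8.93 and 9.17 in WT DMSO. Each KO array lay above each WT array. It rose by 0.44 (SE 0.09), with means of 9.46 ± 0.07 in KO and 9.02 ± 0.14 in WT (SD over 4 arrays; limma, BH adjusted p = 0.0427). Within treatments the difference was 0.45 with TCDD and 0.43 with DMSO. The call was lost on leaving out any single array, with differences between 0.39 and 0.49 and adjusted p between 0.0563 and 0.124 (limma, BH).

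The other Aldoa probe sets did not pass. For 1439375_x_at the groups did not overlap either, at 9.11 and 9.0 in KO TCDD and 9.13 and 8.98 in KO DMSO, against 8.70 and 8.74 in WT TCDD and 8.84 and 8.74 in WT DMSO (difference 0.30, SE 0.07; limma, BH adjusted p = 0.062). The probe set 1433604_x_at read 7.73 to 8.36 in KO and 6.82 to 7.69 in WT, with WT TCDD 1 lowest (difference 0.66; limma, BH adjusted p = 0.121). The fourth, 1434799_x_at, read 8.72 to 9.37 in KO and 8.54 to 8.94 in WT and had overlapping genotypes (difference 0.38; limma, BH adjusted p = 0.211). Averaged over its 4 probe sets, Aldoa differed by 0.44 and was not called (limma, BH adjusted p = 0.064).

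Tpi1 showed the largest difference of the 10 genes. Its probe set 1435659_a_at read 7.33 and 7.33 in KO TCDD and 7.12 and 6.34 in KO DMSO, against 5.57 and 5.11 in WT TCDD and 6.29 and 5.56 in WT DMSO. All KO arrays lay above all WT arrays, but KO DMSO 2 exceeded WT DMSO 1 by only a small margin. Tpi1 averaged 7.03 ± 0.47 in KO cells and 5.63 ± 0.49 in WT cells here (SD over 4 arrays), a difference of 1.40 (SE 0.29) or 2.63-fold, with a 95% interval from 1.67-fold to 4.15-fold (limma, BH adjusted p = 0.0447). The WT mean is under the median probe set level. Within treatments the difference was 1.99 with TCDD and 0.81 with DMSO.

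The second called Tpi1 probe set, 1415918_a_at, read 8.82 and 8.89 in KO TCDD and 8.80 and 8.66 in KO DMSO, against 7.76 and 8.13 in WT TCDD and 8.46 and 7.76 in WT DMSO. The KO arrays were close together and above every WT array, of which WT DMSO 1 was highest. It rose by 0.77 (SE 0.16), with means of 8.79 ± 0.10 in KO and 8.03 ± 0.34 in WT (SD over 4 arrays; limma, BH adjusted p = 0.0445). The third, 1452927_x_at, read 9.12 and 9.43 in KO TCDD and 8.98 and 8.58 in KO DMSO, against 8.24 and 7.92 in WT TCDD and 8.59 and 7.99 in WT DMSO. Here KO DMSO 2 lay just under WT DMSO 1, and the difference of 0.84 did not pass (limma, BH adjusted p = 0.0642). The mean of the 3 probe sets differed by 1.0 (SE 0.19), a 2.0-fold rise (limma, BH adjusted p = 0.0299). By this mean Tpi1 alone of the 10 genes passed, whereas with the brightest probe set standing for each gene Aldoa alone passed (limma, BH adjusted p = 0.0389) and Tpi1 did not (limma, BH adjusted p = 0.0528). Without both WT arrays numbered 2, 1435659_a_at differed by 1.10 and 1415918_a_at by 0.68, with neither called.

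**Figure D3:**
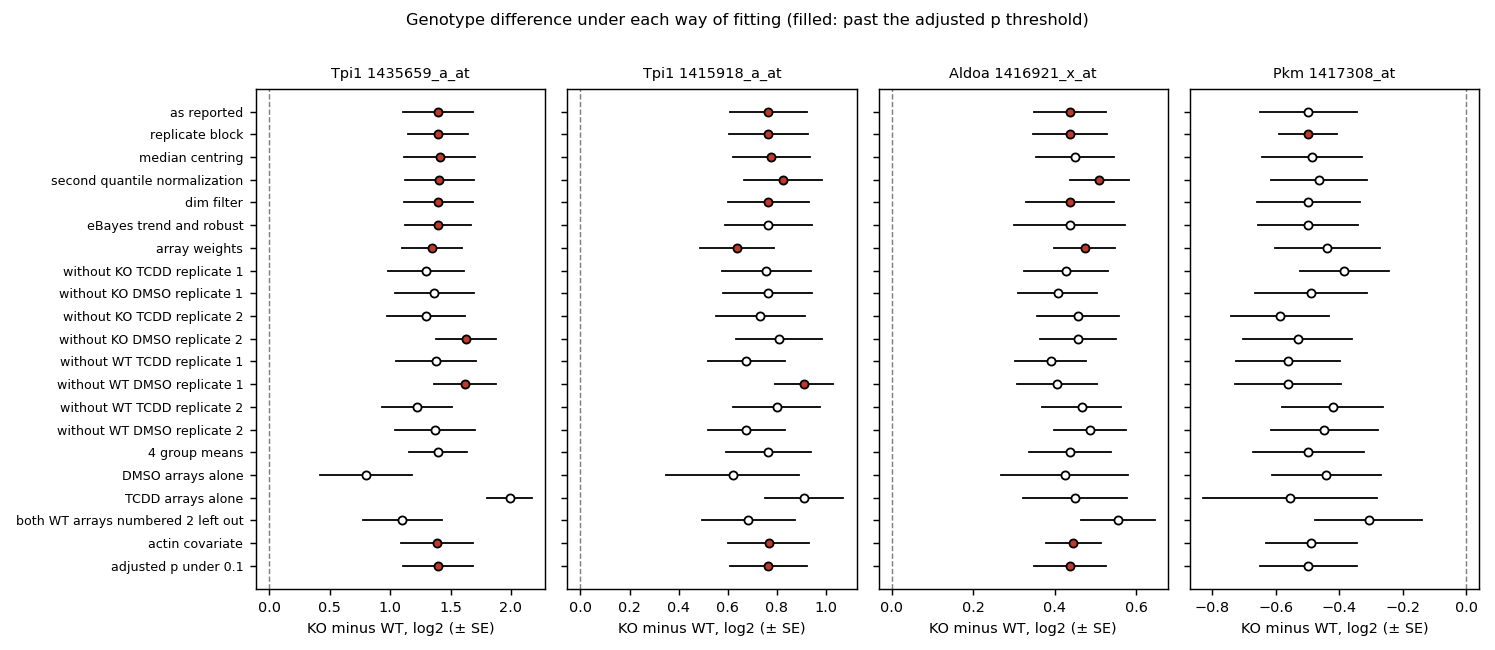
KO minus WT on the log2 scale ± SE (horizontal axis) for the 3 called probe sets and for Pkm, as reported and under 20 other ways of fitting (vertical axis), with filled points where the adjusted p passed its threshold. No difference changes sign, though ways that alter only the error, the threshold or the probe sets tested cannot move a difference. Fewer arrays or a shared spread over 4 group means leave most points unfilled.

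Among the later, ATP-yielding steps, Pgk1 (phosphoglycerate kinase 1, the first step that yields ATP) had 3 probe sets, all with negative differences that did not pass. The probe set 1417864_at read 9.58 and 9.34 in KO TCDD and 9.76 and 9.25 in KO DMSO, against 9.48 and 10.31 in WT TCDD and 9.81 and 9.93 in WT DMSO. The groups overlapped through WT TCDD 1, and the difference was −0.40 (95% interval −0.81 to 0.01; limma, BH adjusted p = 0.261). The probe sets 1438640_x_at and 1439435_x_at differed by −0.05 and −0.08, with 95% intervals from −0.39 to 0.30 and from −0.32 to 0.16. Pgam1 (phosphoglycerate mutase 1) read 7.13 to 7.88 in KO and 7.61 to 7.97 in WT, a difference of −0.22 (95% interval −0.59 to 0.14; limma, BH adjusted p = 0.488).

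Pkm, the gene of the muscle-type pyruvate kinases, which make pyruvate and ATP, was the 1 member whose KO arrays all lay below the WT arrays. It read 6.27 and 6.88 in KO TCDD and 6.59 and 6.71 in KO DMSO, against 6.92 and 7.34 in WT TCDD and 6.92 and 7.26 in WT DMSO. The margin between KO TCDD 2 and the lowest WT arrays was narrow. Pkm averaged 6.61 ± 0.26 in KO cells and 7.11 ± 0.22 in WT cells (SD over 4 arrays), and the difference of −0.50 (SE 0.15) did not pass (limma, BH adjusted p = 0.116).

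Ldha, the lactate dehydrogenase subunit that favours lactate formation, read 9.36 and 8.85 in KO TCDD and 9.58 and 9.14 in KO DMSO, against 9.0 and 10.10 in WT TCDD and 9.06 and 9.50 in WT DMSO. The genotypes overlapped, and the WT arrays numbered 2 were the higher of each WT pair. The difference was −0.18 with a 95% interval from −0.76 to 0.40 (limma, BH adjusted p = 0.748), and it was 0.20 without those arrays.

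The members also differed between KO arrays. KO DMSO 2 was the lowest of the 4 KO arrays in 13 of 21 probe sets, among them all 3 of Pgk1, all 3 of Tpi1 and that of Pgam1; over all probe sets it was lowest in 40.1%. In the WT arrays numbered 2, 7 of the 21 probe sets lay above number 1 in both treatments and 6 lay below, beside 24.4% and 40.0% of all probe sets. The median range over the 4 arrays of a genotype was 0.60 in KO and 0.42 in WT for the members, beside 0.34 and 0.35 for all probe sets.

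Promoter windows were read for the called genes Tpi1 and Aldoa and, for contrast, for the transporter Slc2a1 and for Ldha, neither of which was called. Capitals mark the core motifs GCGTG, known for the aryl hydrocarbon receptor with ARNT, and ACGTG, known for HIF-1 with ARNT and also held by the CACGTG sequence that Myc binds; both strands were searched, so that each CACGTG counts as 2 matches of ACGTG, and the motifs share their last 4 letters but cannot match the same bases on 1 strand. Each window holds 250 bases before and 50 after a transcription start in RefSeq on GRCm38.p6 and is printed 5′ to 3′ along the gene. The Tpi1 window is chr6:124814109-124814408 on the minus strand, the Aldoa window (1 of 3 starts) chr7:126799205-126799504 on the minus strand, the Slc2a1 window chr4:119108495-119108794 on the plus strand and the Ldha window (1 of 2 starts) chr7:46845554-46845853 on the plus strand.
Tpi1: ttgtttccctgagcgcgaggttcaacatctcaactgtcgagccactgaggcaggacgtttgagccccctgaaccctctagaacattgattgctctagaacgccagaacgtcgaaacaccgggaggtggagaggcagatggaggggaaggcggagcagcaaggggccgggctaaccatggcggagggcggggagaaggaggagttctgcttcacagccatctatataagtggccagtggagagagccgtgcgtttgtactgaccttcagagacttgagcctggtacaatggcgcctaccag
Aldoa: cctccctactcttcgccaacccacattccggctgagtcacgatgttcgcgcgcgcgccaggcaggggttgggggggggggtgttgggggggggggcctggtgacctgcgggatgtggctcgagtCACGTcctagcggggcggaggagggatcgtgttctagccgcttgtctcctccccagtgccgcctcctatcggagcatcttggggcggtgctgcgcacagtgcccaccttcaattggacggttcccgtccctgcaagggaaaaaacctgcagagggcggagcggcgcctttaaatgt
Slc2a1: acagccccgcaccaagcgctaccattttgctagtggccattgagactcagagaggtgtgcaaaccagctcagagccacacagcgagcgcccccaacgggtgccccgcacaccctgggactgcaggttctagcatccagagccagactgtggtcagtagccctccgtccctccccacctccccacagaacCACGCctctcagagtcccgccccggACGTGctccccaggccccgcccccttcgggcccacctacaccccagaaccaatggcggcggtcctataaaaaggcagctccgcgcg
Ldha: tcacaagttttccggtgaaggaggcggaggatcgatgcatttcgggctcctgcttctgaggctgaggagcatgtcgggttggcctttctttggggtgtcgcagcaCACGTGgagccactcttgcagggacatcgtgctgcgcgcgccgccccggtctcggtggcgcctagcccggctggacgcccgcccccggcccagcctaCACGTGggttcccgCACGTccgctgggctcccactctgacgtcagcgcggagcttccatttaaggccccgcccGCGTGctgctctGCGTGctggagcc
Tpi1 held neither motif, Aldoa held ACGTG 1 time and GCGTG in none of its 3 windows, Slc2a1 held each 1 time, and the printed Ldha window held GCGTG 2 times and ACGTG 5 times. The other Ldha window held GCGTG 2 times and ACGTG 0 times. The printed windows do not stand for the other uncalled members. GCGTG was absent from every window of Hk2, Pgk1 and Pkm and present in a window of Hk1, Pfkl and Pgam1. A window of Hk1 and a window of Pkm held neither motif. All 10 genes were in the RefSeq table, with 15 windows. Of these, 6 held GCGTG and 9 held ACGTG, that is 40% and 60%, beside 32.4% and 19.6% of all 32851 windows. The windows are not independent: 2 Aldoa windows overlap and hold the same ACGTG site. By gene, 5 of the 10 held GCGTG and 8 held ACGTG, and no share by gene was taken over all windows. A match in these letters is a description of the window and shows no binding.

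The rest of the pathway was taken from a list of other glycolysis genes, of which 22 of 33 had a probe set with that gene alone. Of their 39 probe sets, 1 was called, beside 2.79% of all probe sets. Eno3, an enolase best known from muscle, read 7.31 and 7.60 in KO TCDD and 7.32 and 7.37 in KO DMSO, against 6.81 and 6.71 in WT TCDD and 6.82 and 6.72 in WT DMSO, and rose by 0.64 (SE 0.08; limma, BH adjusted p = 0.0132). All its KO arrays lay clearly above its WT arrays, and the call held on leaving out each single array but not without both WT arrays numbered 2 or within either treatment alone. The median difference of the list was 0.05. Slc2a3 (GLUT3), the high-affinity transporter of lymphocytes, read 8.54 to 9.12 in KO and 8.54 to 8.94 in WT by its brightest probe set. Gpi1 and Eno1 had no probe set of their own in the annotation.

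Gapdh, the dehydrogenase that follows Tpi1, was read from the array's control probe sets, which were left out of the fit. Its 3′ probe set read 11.60 and 11.63 in KO TCDD and 11.76 and 11.30 in KO DMSO, against 10.96 and 10.90 in WT TCDD and 11.17 and 10.78 in WT DMSO. KO arrays lay above WT arrays throughout, with a difference of 0.62 (p = 0.0286 in a two-sided exact permutation test, the lowest value that 70 arrangements can reach, and 0.0857 adjusted over the 3 Gapdh control probe sets). The middle and 5′ probe sets differed by 0.38 and 0.29 and overlapped (exact two-sided permutation p = 0.371 and 0.457). The middle and 5′ values were lowest on WT TCDD 1 (8.18 and 5.62), the array with the largest actin 3′ to 5′ difference.

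Among neighbouring routes, Tkt, the transketolase that links glycolysis to the pentose phosphate pathway, rose in both of its probe sets, by 0.58 and 0.51 (limma, BH adjusted p = 0.0173 and 0.0405). These were the 2 calls among 16 pentose phosphate probe sets of 9 genes, beside 2.79% of all probe sets. Of the 16 differences 5 were positive, and their median was −0.03. Of 30 citric acid cycle probe sets 1 was called, beside 2.79% of all probe sets. It was that of Mdh2 (mitochondrial malate dehydrogenase), which rose by 0.44 (limma, BH adjusted p = 0.0478). Of 15 probe sets for pyruvate entry into mitochondria none was called by limma at adjusted p under 0.05, and the median was −0.23. Pdk1, which restrains that entry, read 9.95 ± 0.27 in KO and 10.20 ± 0.29 in WT by its brighter probe set (SD over 4 arrays; limma, BH adjusted p = 0.47). By its other probe set, 1423748_at, all KO arrays (8.17 to 8.71) lay below all WT arrays (8.92 to 9.74), a difference of −0.84 that did not pass either (limma, BH adjusted p = 0.0582).

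Among 42 probe sets of regulators 3 were called, all lower, beside 1.2% of all probe sets called lower. Pik3r1, the regulatory subunit of PI3K, read 8.22 and 8.15 in KO TCDD and 8.53 and 7.51 in KO DMSO, against 9.26 and 9.17 in WT TCDD and 8.93 and 9.36 in WT DMSO, and fell by 1.08 (SE 0.20; limma, BH adjusted p = 0.0362). Foxo1, a factor restrained by PI3K signalling, fell by 1.23 and 0.62 in 2 of its 4 probe sets (limma, BH adjusted p = 0.034 and 0.0392). Each of the Tkt, Mdh2, Pik3r1 and Foxo1 calls was lost without at least 1 single array, among them KO TCDD 1, KO TCDD 2 and WT DMSO 2 in every case, and no difference changed sign. All of these calls were also lost in the fit of 4 group means (limma, BH adjusted p between 0.0571 and 0.109). The Mdh2 call was lost without any 1 of the 8 arrays and after median centring (limma, BH adjusted p = 0.053). Hif1a read 8.22 ± 0.42 in KO and 8.68 ± 0.15 in WT (SD over 4 arrays; limma, BH adjusted p = 0.217), and Myc 5.76 ± 0.24 in KO and 6.62 ± 0.59 in WT (SD over 4 arrays; limma, BH adjusted p = 0.123). Txnip, which curbs glucose uptake, differed by −0.22. Of 26 hypoxia response probe sets none was called at that threshold, and their median was −0.08.

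**Figure D4:**
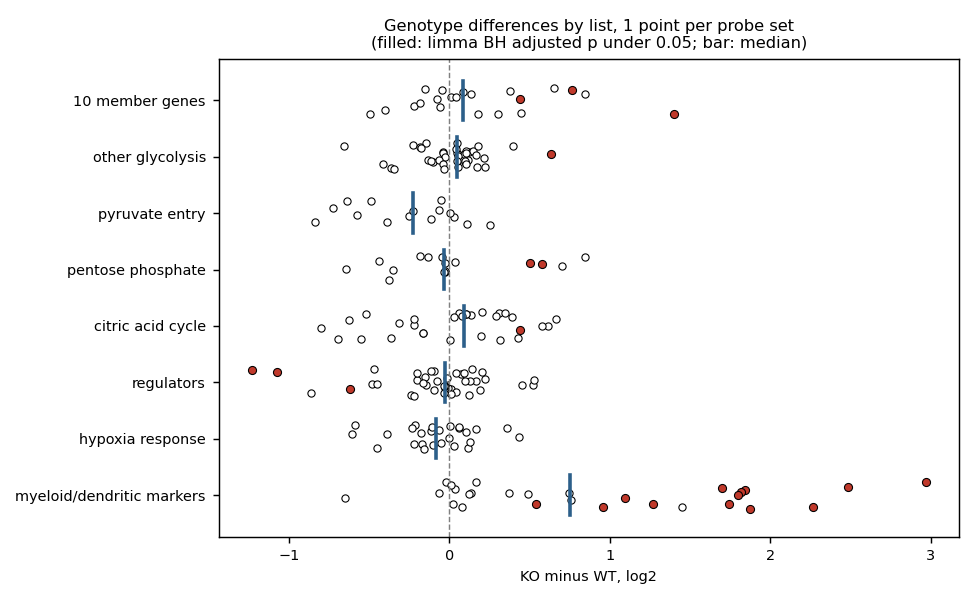
KO minus WT on the log2 scale (horizontal axis) for every probe set of the 10 genes, of 6 related lists and of the myeloid and dendritic marker list, with a bar at each median and filled points where limma's BH adjusted p was under 0.05. The 10 genes have 3 filled points and a median of 0.09, and the marker list has 13 filled points and a median of 0.75.

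Markers of other cells moved with genotype as well. Of 28 myeloid and dendritic marker probe sets 13 were called, all higher in KO, in 9 of 18 genes, the list whose summed signal (1 probe set per gene) is given above. Of 21 B cell marker probe sets, which include class II genes, 7 were called, all higher, in 4 of 13 genes. Of these 21 differences 11 were positive, with a median of 0.10. Their summed signal, in which the brightest genes weigh most, was 6082 to 12822 in KO and 2167 to 3120 in WT. Of 13 NK and CD8 T cell probe sets 3 were called, all higher (summed signal 2848 to 4850 in KO and 1794 to 2042 in WT). Over all probe sets 1.59% were called higher. The defining markers Lyz2 (7.49 ± 0.56 in KO, 7.36 ± 0.61 in WT), Cd79a (5.59 ± 0.20 in KO, 5.67 ± 0.05 in WT) and Cd8a (5.62 ± 0.06 in KO, 5.77 ± 0.07 in WT) did not pass (SD over 4 arrays; RMA gives no value of 0, and the last 2 are under the median level). Erythroid and platelet markers had no call among 12 probe sets, with Hba-a1 at 5.32 ± 0.18 in KO and 5.23 ± 0.10 in WT and Pf4 at 5.49 ± 0.16 in KO and 5.56 ± 0.13 in WT (SD over 4 arrays). Of 24 cell cycle probe sets 5 were called, all higher, and the median of the list was 0.27. Of 14 T cell marker probe sets 1 was called, that of Cd6, which was higher in KO, and the median was −0.19. The part of these cells in the Eno3, Tkt and Gapdh values was not tested. With the actin 3′ to 5′ difference as a covariate, Eno3 differed by 0.63 and Tkt by 0.58 and 0.51 (limma, BH adjusted p = 0.0103, 0.0132 and 0.0264). That covariate differed by only 0.04 between genotypes, so it could move a KO minus WT difference only slightly. The part of RNA integrity in these values was not tested.

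TCDD did not give a called change in any of the 10 genes, with or without the receptor. In WT, TCDD minus DMSO ran from −0.59 (Tpi1 1435659_a_at, SE 0.34) to 0.33 (Hk2, SE 0.19) over the 21 probe sets, with a median of −0.02 beside 0.025 over all probe sets. In KO it ran from −0.29 (Pfkl 1450269_a_at, SE 0.16) to 0.60 (Tpi1 1435659_a_at, SE 0.34), with a median of 0. Limma called 0 of 21 in each genotype, and 0 had an unadjusted p under 0.05. Over all 22626 probe sets 0% were called in either genotype, and 631 in WT and 383 in KO had an unadjusted p under 0.05.

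The spread between the 2 arrays of a group was wide for some members. In WT the Slc2a1 probe set 1434773_a_at differed between the arrays of a group by 2.19 with TCDD and by 0.71 with DMSO, while TCDD minus DMSO was −0.24 (SE 0.65). Ldha read 9.0 and 10.10 in WT TCDD and 9.06 and 9.50 in WT DMSO with a TCDD difference of 0.27 (SE 0.39).

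The TCDD effect in KO minus that in WT was tested as an interaction and gave 0 calls among the 21, as among all 22626 probe sets (0%). Tpi1 1435659_a_at had the largest value, 1.19 (SE 0.48; limma, BH adjusted p = 0.998), and was the 1 member with an unadjusted p under 0.05, beside 628 of all probe sets. In KO both TCDD arrays (7.33 each) lay above both DMSO arrays (7.12 and 6.34), while in WT the TCDD arrays (5.57 and 5.11) overlapped the DMSO arrays (6.29 and 5.56). The other 2 Tpi1 probe sets gave 0.71 and 0.29. The remaining members lay between −0.53 (Ldha) and 0.55 (Slc2a1 1434773_a_at).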

How the data were processed

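Per the labels' protocols, TRIzol RNA of the sorted cells was amplified (Ambion) before the Affymetrix procedure. The authors deposited log2 expression values made with RMA (affy), as the submitters' processing notes name them without versions. Of 22690 probe sets, 64 Affymetrix controls were left out and 22626 tested; 20380 of these had 1 gene symbol, 691 several and 1555 none in the platform annotation. Array medians were 6.08 to 6.15, and at most 2.85% of values were identical in any pair of arrays, so no array was a duplicate. The number of arrays limits the precision.

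Samples were grouped by title. KO was compared with WT as 4 against 4 with limma 3.58.1 (R 4.3.3, lmFit and eBayes), and TCDD effects with their interaction in a fit of 4 group means. BH adjustment ran over the 22626 probe sets. The fits were tested on simulated data. The brightest probe set of a gene is the one with the highest mean over 8 arrays. Named were all member probe sets, every called probe set of the 6 related lists, a few genes fixed by name and the marker lists; Pdk1, the promoter windows and the motifs were chosen after values were seen. The members and lists were chosen with earlier results of these data known. Alternatives covered normalization, filters, array weights, covariates, array subsets and gene summaries.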

Additional observations from a re-analysis of the deposited data

How the results depend on the processing

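Several alternatives alter only the error, the threshold or the probe sets tested, so they cannot change a difference or its sign. The replicate block, the dim filter, eBayes trend and robust and 4 group means are of this kind. So are adjusted p under 0.1 and 1 probe set per gene. Median centring shifts every probe set by the same amount. The actin covariate differed by only 0.04 between genotypes and so could move a KO minus WT difference only slightly. The counts that follow therefore do not measure how steady the sizes are. Of 429 member differences over the alternatives, 359 kept direction and side of the threshold, 36 lost the call, 14 gained it and 20 changed sign, none of these 20 called; 13 of 21 probe sets never changed sign. The number of member probe sets called in KO against WT (3) was 5 after a second quantile normalization, 1 with eBayes trend and robust, 7 with array weights, 6 with the actin covariate, 5 at adjusted p under 0.1, 1 with 1 probe set per gene (Aldoa), 1 with gene-level means (Tpi1), and 0 with 4 group means, DMSO arrays alone, TCDD arrays alone or both WT arrays numbered 2 left out. Leaving out 1 array gave 0 to 2. The count over all probe sets (631) was 985 after a second quantile normalization, 1604 with array weights, 1834 with the actin covariate, 1741 at adjusted p under 0.1, 161 with 4 group means, 0 with DMSO or TCDD arrays alone, 28 without both WT arrays numbered 2 and 109 to 667 without 1 array. Other glycolysis genes (1) gave 3 with array weights, 4 with the actin covariate or at adjusted p under 0.1, 0 with DMSO arrays alone, TCDD arrays alone or both WT arrays numbered 2 left out, and 1 to 2 without 1 array. The cause was not tested, except that the subsets hold fewer arrays.

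Signs turned in Slc2a1 1426599_a_at (−0.087 with array weights, −0.12 with TCDD arrays alone, −0.37 without both WT arrays numbered 2, −0.019 with the actin covariate, −0.12 to 0.21 without 1 array), Slc2a1 1434773_a_at (−0.28 without both WT arrays numbered 2), Hk2 (0.019 with array weights), Pfkl 1439148_a_at (−0.073 without both WT arrays numbered 2, −0.11 to 0.14 without 1 array), Pfkl 1450269_a_at (−0.11 with TCDD arrays alone), Pgk1 1438640_x_at (0.070 with array weights, 0.07 with TCDD arrays alone, −0.15 to 0.083 without 1 array), Pgk1 1439435_x_at (−0.14 to 0.018 without 1 array), Ldha (0.08 with DMSO arrays alone, 0.20 without both WT arrays numbered 2, −0.32 to 0.046 without 1 array), Slc2a3 1437052_s_at (−0.10 with TCDD arrays alone, −0.025 without both WT arrays numbered 2, −0.043 to 0.15 without 1 array) and Txnip (0.20 without both WT arrays numbered 2).

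Deviations of same-numbered arrays correlated at 0.626 between WT DMSO and WT TCDD. Over the other group pairs, within KO and across genotypes, they correlated between −0.293 and 0.216. Same-numbered WT arrays thus shared part of their deviations, but the replicate numbers gave no pairing common to all groups. The genotype and TCDD tests in the Results used no replicate block and so left this shared part in WT out of account. With the replicate block 801 probe sets were called, and 4 of the 21 members, Pkm among them at −0.50 (limma, BH adjusted p = 0.0382), while Mdh2 was no longer called (limma, BH adjusted p = 0.0537). TCDD and interaction counts were 0 under all 14 alternatives. Signals near or under the median level limit what Hk1 1420901_a_at and Slc2a1 1426600_at can show. The same holds for the called Tpi1 1435659_a_at in WT, where its mean was 5.63.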
